A study of Homo sapiens with 3 samples.

Results

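Broad H3K4me1 regions are unusually long stretches of chromatin called for monomethylation of histone H3 at lysine 4. They were examined in LNCaP, an androgen-responsive line from a metastatic human prostate carcinoma. The members were chosen by the width and the authors' score of H3K4me1 regions on chromosomes 1 to 22, with a width of at least 10 kb and a score above 0.001, and 652 of the 200813 regions in the H3K4me1 list passed. The list came from 1 H3K4me1 library, and it was set against the list from 1 H3K27ac library of the same line. Both libraries were made from formaldehyde-crosslinked LNCaP nuclei, and an input library without antibody was not analysed here. Cells received no treatment that the labels record, and no replicate of either mark is labelled. The normal prostate epithelial cells and the PC3 line named in the series design were not analysed here.

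H3K4me1 is laid down by the MLL3 and MLL4 methyltransferases and marks enhancers, both those that are active and those that are only primed. H3K27ac is laid down by the acetyltransferases p300 and CBP and marks enhancers and promoters that are active. At an active enhancer or promoter, H3K27ac usually sits on the nucleosomes nearest the bound factors, and H3K4me1 often spreads farther to the sides. Long stretches in which several acetylated elements lie side by side are a known feature of genes that define a cell's identity.

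Because width and score chose the regions, both are given only as a description. The median width was 12650 bp, with quartiles of 11038 and 15300 bp and extremes of 10000 and 45250 bp. In all, the 652 regions covered 9.22 Mb, which was 0.330% of the autosomal H3K4me1 regions by number and 3.19% by length. Every one of them carried the same score, 0.003, which also belonged to 27.9% of all autosomal H3K4me1 regions. At scores above 0.003 the widest autosomal region reached 5950 bp. The score limit therefore removed only 4 regions, all at 0.001, and the width limit did the rest of the choosing. Just inside the width limit, 6 regions measured exactly 10000 bp, and 12 regions of 9950 bp lay just outside it.

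Every broad H3K4me1 region met H3K27ac. All 652 overlapped at least 1 H3K27ac region by 1 bp or more, for which the exact 95% interval is 99.4% to 100%. Of all autosomal H3K4me1 regions, 34.3% did so. H3K27ac covered at least 50% of the length in 525 broad regions (80.5%, interval 77.3% to 83.5%), against 25.3% of all autosomal regions. It did so in 73.4% (69.8% to 76.8%) of H3K4me1 regions of 8 to under 10 kb and in 62.9% of those of 4 to under 8 kb. Both of these narrower classes were also limited to scores above 0.001. With 1 library per mark, no test between samples could be made. The intervals cover counting error over regions, treat neighbouring regions as independent and so are too narrow. The lists hold no read counts, so the depth behind both is unknown.

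Acetylation filled most of the length. H3K27ac covered 6.40 of the 9.22 Mb, or 69.5%, whereas it covered 35.1% of the length of all autosomal H3K4me1 regions. The rest split into H3K4me1-only edges, outside the first and last H3K27ac region, with 1.61 Mb or 17.5%, and H3K4me1-only stretches between H3K27ac regions, with 1.21 Mb or 13.1%. The share in H3K27ac differed widely from one broad region to the next, with a median of 70.5%, quartiles of 54.3% and 85.5% and extremes of 5.56% and 100%. In 114 regions (17.5%) at least 90% of the length was acetylated, and 25 of these (3.83% of the broad regions) lay wholly inside H3K27ac. Of all autosomal H3K4me1 regions, 9.30% were acetylated over at least 90% and 6.75% lay wholly inside. These shares were 14.7% and 3.91% at 8 to under 10 kb, and 11.4% and 4.29% at 4 to under 8 kb. Full coverage was thus no more frequent in broad regions than in these. At the other end, 31 regions (4.75%, interval 3.25% to 6.68%) had less than 30% of their length in H3K27ac. So did 69.0% of all autosomal H3K4me1 regions, 9.70% at 8 to under 10 kb and 16.4% at 4 to under 8 kb.

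**Figure D1:**
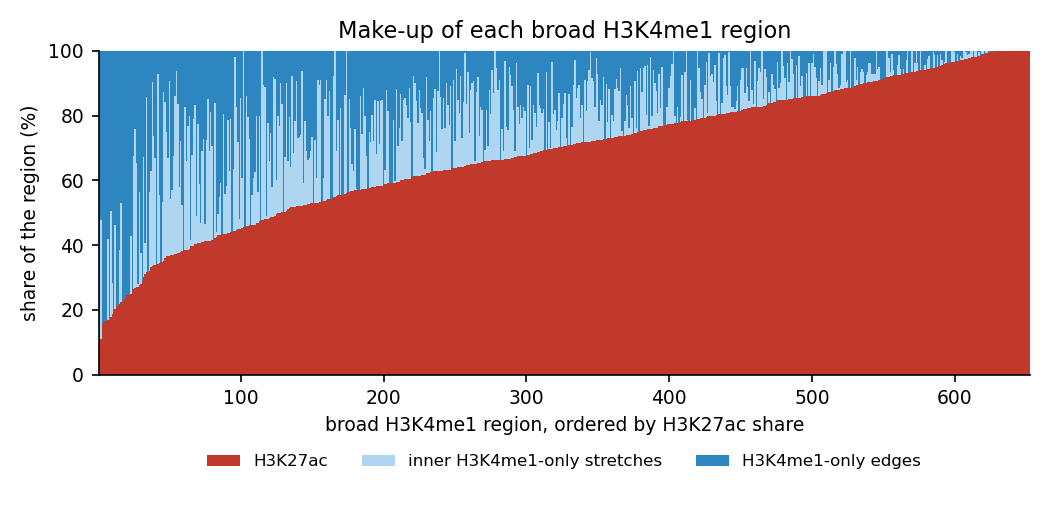
Each of the 652 broad H3K4me1 regions is a column, ordered by its H3K27ac share on the x axis, and the y axis gives the share of its length in H3K27ac, in inner H3K4me1-only stretches and in H3K4me1-only edges (%). The H3K27ac share runs from 5.56% to 100% with a median of 70.5%, and it is at least 50% in 525 columns.

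Most broad regions held several H3K27ac regions, most often 2. A single H3K27ac region was present in 150 (23.0%), 2 in 273 (41.9%), 3 in 141 (21.6%), 4 in 59 and 5 in 21. Another 5 held 6, 2 held 7 and 1 held 8. Thus 502 broad regions (77.0%, interval 73.6% to 80.2%) met at least 2 H3K27ac regions, as did 2.15% of all autosomal H3K4me1 regions. In the narrower classes the share was 56.5% (52.5% to 60.4%) at 8 to under 10 kb and 22.6% at 4 to under 8 kb. The part of width in these differences was not tested. The mean number was higher in wider regions, being 1.90 ± 0.82 at 10 to 12 kb (SD over 275 regions), 2.32 ± 1.03 at 12 to 15 kb (187 regions), 2.69 ± 1.08 at 15 to 20 kb (128 regions) and 3.42 ± 1.55 at 20 kb or more (62 regions). Per 10 kb of H3K4me1 the number was lower in wider regions, being 1.75, 1.74, 1.60 and 1.34 in the same classes. It was 1.64 over all broad regions, 1.89 at 8 to under 10 kb and 2.25 at 4 to under 8 kb. Over all autosomal H3K4me1 regions it was 2.52, so per length the broad regions held the fewest. The median width of the widest H3K27ac piece was 5050, 6200, 6625 and 10550 bp in the same width classes of broad regions. The widest broad regions thus held more H3K27ac regions, and their widest piece was longer. A wider region has room for a longer piece, and that part of the difference was not tested.

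**Figure D2:**
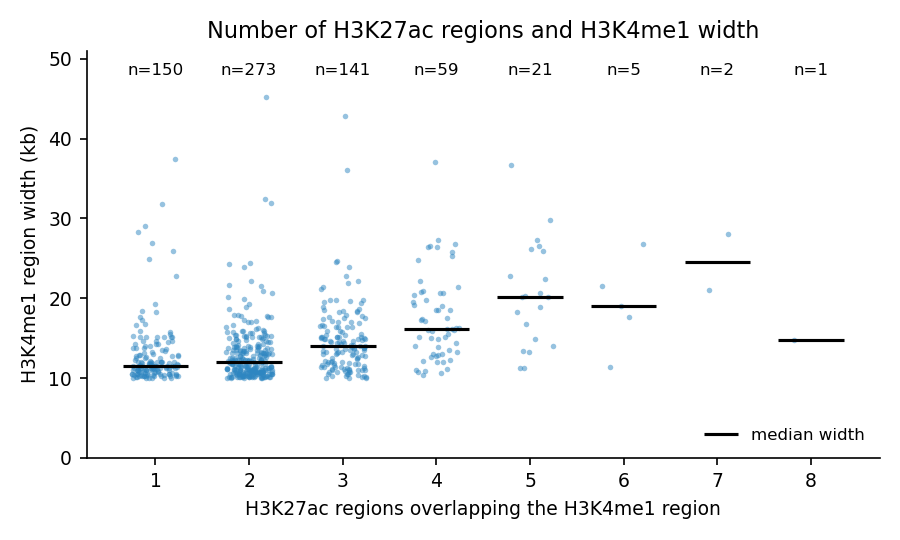
Each point is 1 of the 652 broad H3K4me1 regions, placed by the number of H3K27ac regions it overlaps (x axis, spread sideways for visibility) and its width in kb (y axis), with black lines at the median width for each number. Median width is 11550 bp with 1 H3K27ac region, 11950 bp with 2, 14000 bp with 3 and 20200 bp with 5, and the 3rd widest region (37500 bp) holds only 1.

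Broad regions with a single H3K27ac region had the highest median acetylated share. By definition they hold no inner H3K4me1-only stretch, and the part of this in the difference was not tested. The least acetylated broad region, at 5.56%, also held a single one. Their median H3K27ac share was 83.8% (quartiles 57.2% and 96.1%), and the single H3K27ac piece had a median width of 9825 bp. With 2 H3K27ac regions the median share was 68.7% (51.3% and 83.1%) and the widest piece 5550 bp, and with 3 it was 67.4% (56.6% and 77.5%) and 4800 bp. In 279 broad regions (42.8%) 1 H3K27ac piece alone covered at least 50% of the length. The widest piece covered 44.8% of a broad region at the median. Among overlapping regions it covered 48.4% at 8 to under 10 kb and 53.9% at 4 to under 8 kb. Over all overlapping autosomal H3K4me1 regions it covered 67.6%, so such a dominant piece was not particular to broad regions. An unbroken block of acetylation and a chain of shorter ones were thus both common among broad H3K4me1 regions.

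The broad regions met 1500 different H3K27ac regions, 2.17% of those on the autosomes, and held 4.57% of the autosomal H3K27ac length. Of these, 1217 (81.1%, interval 79.1% to 83.1%) lay wholly inside, and they were 2850 bp wide at the median, with quartiles of 1600 and 4850 bp. The 283 that crossed an edge were wider, with a median of 6200 bp (3125 and 12400 bp). The median over all 1500 was 3175 bp, against 1600 bp for all autosomal H3K27ac regions. Among the 1500, 675 (45.0%) had the lowest H3K27ac score, 0.001, against 14.5% of all autosomal H3K27ac regions. The meaning of the score is not stated and a low score may mark the more confident regions: at 0.001 the autosomal H3K27ac regions were 3700 bp wide at the median, against 1450 bp above it. Wider H3K27ac regions meet H3K4me1 more readily, and the part of width in these differences was not tested. An H3K27ac region at 0.001, a score that need not mean weak signal, was present in 527 broad regions, whose median acetylated share was 74.4% (quartiles 61.4% and 87.3%). The 125 broad regions without one had a median share of 45.8% (34.8% and 61.7%).

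The position of H3K27ac followed a plateau with soft edges. When each broad region was divided into 10 equal parts from left to right, H3K27ac covered 46.8% and 44.7% of the outermost parts, 71.6% and 72.3% of the next ones, and 74.6% to 78.2% of the 6 central parts. The midpoint lay in H3K27ac in 493 of the 652 regions (75.6%, interval 72.1% to 78.9%), so no dip of acetylation stood at the centre of the average profile. The midpoint did so in 27.3% of all autosomal H3K4me1 regions, in 77.5% at 8 to under 10 kb and in 74.4% at 4 to under 8 kb. High coverage at the centre was thus shared with the narrower classes. The widest H3K27ac piece had its middle in the central one of 3 equal parts of the region in 363 cases (55.7%). A piece longer than 2 of these 3 parts has its middle there by definition, and the part of piece length was not tested. Among the 502 regions with 2 or more H3K27ac regions, the middle of the widest piece lay in the central part in 227 (45.2%). It lay in the left part in 131 and in the right part in 144. In the 141 regions with 3 H3K27ac regions, the middle one was the widest in 42 (29.8%, interval 22.4% to 38.1%).

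H3K4me1-only edges were present on both sides in 385 broad regions (59.0%, interval 55.2% to 62.9%), on 1 side in 202 (31.0%) and on neither in 65 (9.97%). Overlap with H3K27ac and an edge on both sides was found together in 9.11% of all autosomal H3K4me1 regions, most of which met no H3K27ac. Of the 67832 autosomal regions that overlapped H3K27ac, 26.5% had an edge on both sides. Over all 1304 sides the median edge was 750 bp, with quartiles of 0 and 1750 bp, and over the 972 sides with an edge it was 1200 bp (650 and 2150 bp). Edges of at least 500 bp on both sides were seen in 270 regions (41.4%). The sides of a region were seldom alike: the longer edge had a median of 1400 bp and the shorter one of 250 bp. Which side was longer showed no lean, as the left edge was the longer in 282 of the 579 regions with unequal edges (48.7%, interval 44.6% to 52.9%). An edge on both sides was found in 83 of the 150 regions with 1 H3K27ac region (55.3%), in 170 of 273 with 2 (62.3%) and in 132 of 229 with 3 or more (57.6%).

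The edges of broad regions were somewhat longer than those of narrower H3K4me1 regions by some measures, though by much less than the regions were wider. Their median over all sides lay below that of regions of 8 to under 10 kb. They were compared with the regions of 8 to under 10 kb and of 4 to under 8 kb with scores above 0.001, of which 628 of 639 and 6817 of 7365 overlapped H3K27ac and so had edges to measure. Over sides with an edge, the median was 1200 bp in broad regions, 1100 bp at 8 to under 10 kb and 900 bp at 4 to under 8 kb. Over all sides, those without an edge included, the medians were 750, 800 and 700 bp and the means 1234, 1143 and 893 bp in the same order. An edge on both sides was less frequent in the broad regions, at 59.0% (interval 55.2% to 62.9%), against 64.6% (60.8% to 68.4%) and 64.3% (63.1% to 65.4%) of the overlapping regions in the narrower classes. The remaining values count all regions of each class, those without H3K27ac included, and so lie lower for the narrower classes than among overlapping regions alone. Counted inward from an edge, H3K27ac covered 38.3%, 38.5% and 38.3% of positions at 0.5 kb and 72.5%, 72.0% and 73.4% at 2 kb in these 3 width classes. At 3 kb it covered 76.3% in the broad regions and 73.8% in those of 8 to under 10 kb. The pooled edge share, out of the length of all regions of a class, was 17.5% in broad regions, 25.5% at 8 to under 10 kb and 31.7% at 4 to under 8 kb.

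**Figure D3:**
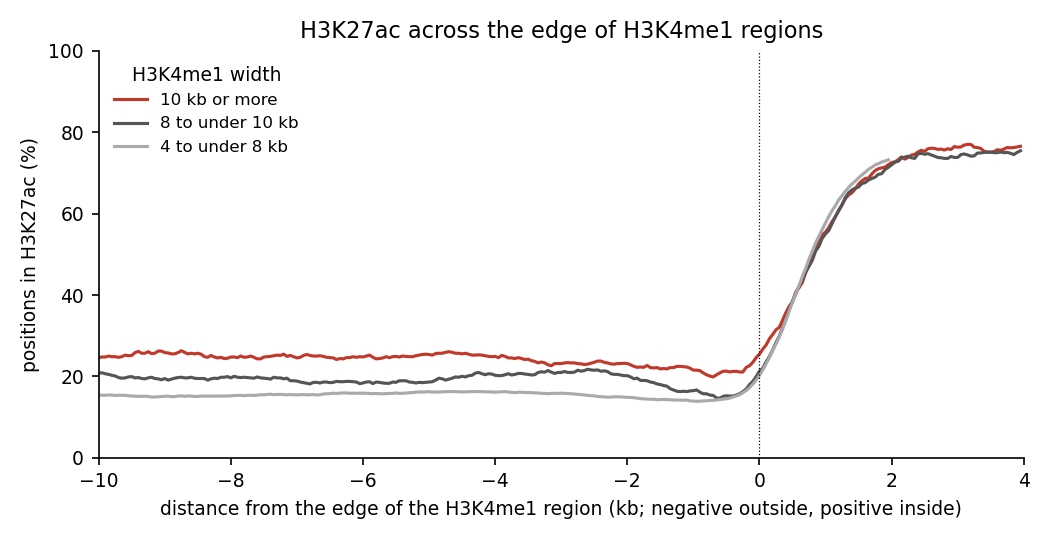
The share of positions lying in H3K27ac (y axis, %) is plotted against the distance from the edge of the H3K4me1 region (x axis, kb, negative outside and positive inside), both sides pooled, for regions of 10 kb or more (1304 sides), 8 to under 10 kb (1278 sides) and 4 to under 8 kb (14730 sides, drawn only to 2 kb inside because the narrowest end there). Regions without H3K27ac are included. Inside the edge the 3 curves climb to similar levels, 72.5%, 72.0% and 73.4% at 2 kb, and outside it they are apart, at 25.4%, 18.6% and 16.2% at 5 kb.

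Inner stretches took a larger part of the wider regions. H3K4me1-only stretches between H3K27ac regions made up 13.1% of the length of broad regions, against 9.10% at 8 to under 10 kb and 3.997% at 4 to under 8 kb. Broad regions held 860 such stretches, with a median of 950 bp, quartiles of 400 and 1950 bp and extremes of 50 and 8300 bp. Stretches of 500 bp or less made up 269 of the 860 (31.3%). Where a broad region held 2 or more H3K27ac regions, its longest inner stretch had a median of 1500 bp, against 1100 bp at 8 to under 10 kb and 700 bp at 4 to under 8 kb. A wider region has room for longer stretches, and that part of the difference was not tested. The pooled H3K27ac share was 69.5% in broad regions, 63.7% at 8 to under 10 kb and 57.4% at 4 to under 8 kb, and all of the first, 98.3% of the second and 92.6% of the third met H3K27ac at all. Within the broad regions themselves, width and H3K27ac share were only weakly related (Spearman's rho 0.10 across 652 regions of 1 library, as a description). The median share was 67.3% at 10 to 12 kb, 71.7% at 12 to 15 kb and 69.7% at 15 to 20 kb. It was higher, at 79.2% (quartiles 66.4% and 90.1%), in the 62 regions of 20 kb or more.

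Acetylation stopped inside the H3K4me1 region more often than it ran past it. H3K27ac crossed at least 1 edge in 258 broad regions (39.6%, interval 35.8% to 43.4%) and both edges in 62 (9.51%). Of the 67832 autosomal H3K4me1 regions of any width that overlapped H3K27ac, 71.1% had it crossing an edge. Among overlapping regions of the nearest widths the share was instead lower than in broad regions, at 33.3% (29.6% to 37.1%) for 8 to under 10 kb and 33.8% (32.7% to 34.9%) for 4 to under 8 kb. Where it crossed, it reached a median of 1300 bp beyond the broad region, with quartiles of 475 and 2850 bp.

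The farthest reaches lay in a few very long H3K27ac blocks that contained several broad H3K4me1 regions. The H3K27ac region at chr12:65000851-65093200, 92.4 kb wide, met 3 broad H3K4me1 regions, and from the one at chr12:65021951-65033050 it ran on for 60.2 kb to the right. The one at chr22:46430351-46512350, 82.0 kb wide, met 2 that were 22550 bp apart. The one at chr15:89630151-89698050, 67.9 kb wide, met 2 that were only 150 bp apart. In all, 11 H3K27ac regions met several broad regions, in 23 overlaps altogether, and in each of these the H3K4me1 call was broken while the H3K27ac call was not. Of the 436 autosomal H3K27ac regions of 10 kb or more, 151 (34.6%) met a broad H3K4me1 region, against 2.17% of all autosomal H3K27ac regions. Conversely, 158 of the 652 broad H3K4me1 regions (24.2%) met one of the 436. The share of narrower H3K4me1 regions that met one was not counted, and the part of width in these shares was not tested.

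The 10 widest broad regions showed both layouts. The widest, chr19:13107101-13152350, was 45250 bp wide and 96.6% acetylated, by 1 H3K27ac region of 44200 bp that began 1900 bp before its left edge and a second at its right end, with 1550 bp of H3K4me1 alone between them. The next, chr9:137240501-137283350, was 42850 bp wide and 67.6% acetylated. It carried a 26.3 kb H3K27ac block with a smaller one to either side, edges of 3850 and 3300 bp without H3K27ac and an inner stretch of 5750 bp. The third, chr15:89640551-89678050, lay wholly inside an H3K27ac region that reached 10400 bp past its left edge and 20000 bp past its right edge.

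On chromosome 14 a pair of regions of nearly equal width differed in layout. At chr14:100014251-100051350 (37100 bp), 4 H3K27ac regions covered 84.6%, the widest of them 22100 bp. At chr14:105928201-105964850 (36650 bp), 5 H3K27ac regions covered 54.2%, none wider than 5250 bp, and inner stretches without H3K27ac added up to 12200 bp. The region at chr17:72740001-72769850 (29850 bp) was likewise a chain, with 5 H3K27ac regions over 74.5%.

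The other 4 of the 10 lay on chromosome 1 and were close to full. At chr1:36691501-36727550, 3 H3K27ac regions covered 98.9% of 36050 bp, with breaks of at most 250 bp. At chr1:37922901-37955300, H3K27ac covered 93.5% of 32400 bp. At chr1:10722651-10754550 it covered 95.8% of 31900 bp, and at chr1:154375101-154406950 98.3% of 31850 bp. In these last 3 the left edge was free of H3K27ac over 1200, 1100 and 550 bp, and H3K27ac reached past the right edge by 100, 1350 and 2800 bp.

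**Figure D4:**
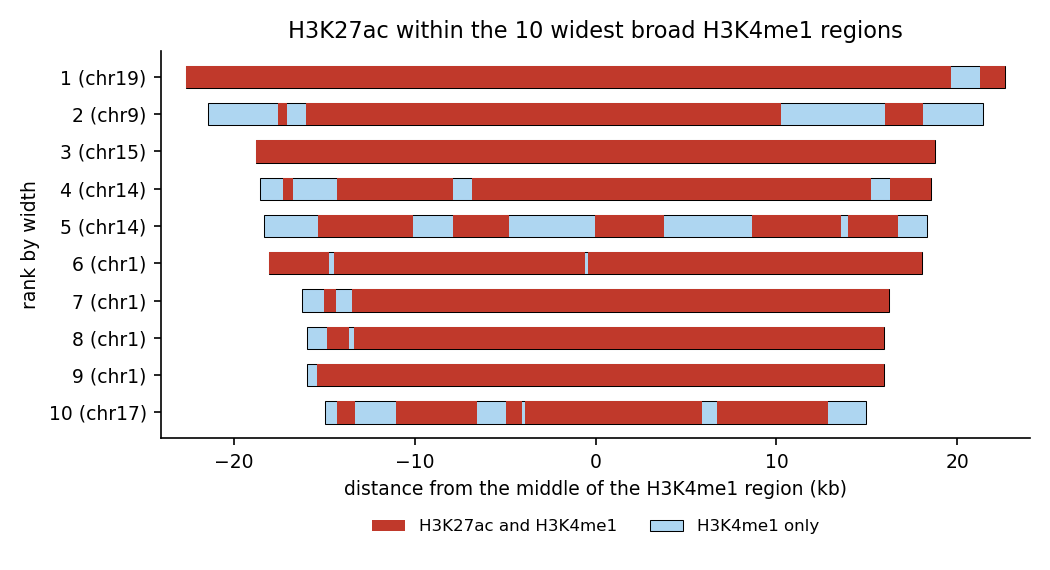
The 10 widest broad H3K4me1 regions are drawn to scale as bars about their own middle (x axis, kb; y axis, rank by width with the chromosome), with the parts in H3K27ac in red and the parts in H3K4me1 alone in pale blue. Rank 3 is red throughout, ranks 1 and 6 to 9 are 93.5% to 98.9% red, and rank 5 is a chain of 5 red blocks over 54.2% of its length.

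Broad regions with the most H3K27ac regions were not the widest ones. The highest number, 8, was at chr2:91795051-91809800, a region of 14750 bp in which no H3K27ac piece was wider than 1750 bp and none had the lowest score. H3K27ac covered 54.9% of it, and the outermost H3K27ac regions ran past both edges. The regions at chr5:172270651-172298750 (28100 bp, 72.1% acetylated) and chr8:128825201-128846200 (21000 bp, 62.9%) held 7 each. At chr5:131749301-131766950 (17650 bp) 6 H3K27ac regions covered 76.8%, and at chr7:50738351-50757350 (19000 bp) 6 covered 93.4% with no break over 400 bp. Of these 2 chains of 6, the second was thus nearly closed, and the first had a longest inner stretch of 1500 bp.

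The least acetylated broad regions held 1 or 2 short H3K27ac regions in a long H3K4me1 field. At chr1:2197401-2208200 (10800 bp), a single H3K27ac region of 600 bp made up 5.56%, with 4200 bp of H3K4me1 alone to its left and 6000 bp to its right. At chr16:85664301-85681350 (17050 bp), 2 H3K27ac regions together covered 1850 bp, or 10.9%, and stood 6300 bp apart. The region at chr3:50302601-50312900 was 15.5% acetylated, that at chr1:1286401-1296600 16.2% and that at chr1:205484251-205494300 16.4%, each by 1 H3K27ac region of 1600 or 1650 bp. None of these 5 held an H3K27ac region of the lowest score, and in none did H3K27ac cross an edge. At the opposite end, the first 5 in genome order of the 25 regions that H3K27ac covered in full were at chr1:207191401-207205450, chr1:223917951-223928350, chr3:58019201-58032050, chr4:1157451-1170350 and chr4:41358201-41370350. Each of these 5 lay inside 1 H3K27ac region, of 13050 to 28000 bp.

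A few broad regions were strongly one-sided. The longest H3K4me1-only edge measured 12650 bp and made up most of chr9:137218501-137235250 (16750 bp), where the only H3K27ac lay at the left end and ran 1750 bp past it. Its right neighbour among the broad regions was the second widest of all. At chr17:38477401-38492700 the left 8900 bp of 15300 bp were free of H3K27ac, against 650 bp on the right. At chr17:826951-837800 the right 8700 bp of 10850 bp were free, against 350 bp on the left. Left edges of 8600 bp at chr1:41939201-41952300 and 8350 bp at chr1:3455101-3472850 followed.

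The longest inner stretches without H3K27ac divided broad regions into separate acetylated parts. The longest, 8300 bp, was at chr12:54411351-54438700, a region of 27350 bp that held 5 H3K27ac regions over 37.1% of its length and 15500 bp of inner H3K4me1 alone. Stretches of 7300 bp were found at chr9:136919351-136932850 and chr12:133067251-133085750. Stretches of 6850 bp were found at chr14:100051851-100070350, which began 500 bp to the right of the fourth widest broad region, and at chr17:79021001-79043200.

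Broad regions sat in neighbourhoods that were rich in both marks. H3K27ac covered 69.5% of the length inside, against 24.5% in windows of each region's own width directly to its left and right, of which H3K4me1 covered 48.2%. At 5 kb outside an edge, H3K4me1 covered 50.1% of positions for broad regions. It covered 43.4% for regions of 8 to under 10 kb and 33.8% for those of 4 to under 8 kb. H3K27ac covered 25.4%, 18.6% and 16.2% there in the same order. Such surroundings were thus shared in part with the narrower classes. H3K27ac was denser inside than in the pair of windows for 636 of the 652 regions (97.5%, interval 96.0% to 98.6%), and 56 regions (8.59%) had none in either window. The nearest other H3K4me1 region was 400 bp away at the median (quartiles 150 and 950 bp), and for all autosomal H3K4me1 regions it was 1500 bp away (450 and 4850 bp). In 396 broad regions (60.7%, interval 56.9% to 64.5%) that gap was 500 bp or less, as it was for 28.3% of all. Counted over all 1304 sides, the next H3K4me1 region was within 500 bp at 495 (38.0%, interval 35.3% to 40.7%), against 15.8% of the sides of all autosomal H3K4me1 regions, and the median gap was 900 bp (quartiles 300 and 2700 bp). Merging across breaks of up to 500 bp gave 1502 broad regions in place of 652, since narrower regions then also reached 10 kb.

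Some broad regions lay close together, although the median gap between neighbours on a chromosome was 608 kb. Another one lay within 100 kb for 262 of the 652 (40.2%, interval 36.4% to 44.1%), within 10 kb for 114 (17.5%) and within 1 kb for 49 (7.52%). Among the 639 regions of 8 to under 10 kb, another of that class lay within 100 kb for 176 (27.5%, interval 24.1% to 31.2%) and within 10 kb for 50 (7.82%). The closest neighbours were 4 pairs 50 bp apart and 3 pairs 100 bp apart, of which the first in genome order is described along with the 4 pairs. At chr3:57994701-58019150 with its neighbour and at chr5:139014651-139028300 with its neighbour the break of 50 bp was itself in H3K27ac. In the pairs beginning at chr10:80823351-80840550, chr11:75028351-75043300 and chr10:5540001-5550100 the break held none, and the members were 42.6% to 57.6% acetylated.

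Runs of broad regions at most 100 kb apart numbered 104 and held 262 regions. The longest by number was at chr8:134253651-134582800, where 8 broad regions added up to 135.7 kb of a 329 kb span and were 84.8% acetylated. The run at chr10:79165101-79399650 held 7 over 102 kb, at 66.3%. Runs of 6 were at chr8:128807501-128971550, with 95.8 kb at 83.2%, and at chr16:89378601-89546800, with 82.0 kb at 68.0%. The 5 broad regions at chr3:57994701-58139650 were 89.9% acetylated, whereas the 4 at chr1:54728301-54853150 were 42.0% acetylated. In windows of 1 Mb, 379 held a broad region and 65 held 3 or more, which together accounted for 253 of the 652.

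The spread over chromosomes was uneven. Chromosome 1 carried the most broad regions, 105 (16.1%, interval 13.4% to 19.2%), followed by chromosome 17 with 66 (10.1%, 7.92% to 12.7%). Relative to the span of the chromosome, chromosome 17 led with 8.13 per 10 Mb, chromosome 19 followed with 7.11, and the autosomes together had 2.26. Chromosome 18 carried 1 broad region, or 0.128 per 10 Mb, and chromosome 13 carried 2, or 0.174 per 10 Mb. Across the 22 autosomes, the number per 10 Mb went with the density of H3K4me1 as a whole (Spearman's rho 0.90, as a description across chromosomes of 1 library). The lists were not corrected for the copy number changes of this aneuploid line.

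Broad regions were spread differently from the H3K4me1 list as a whole. Chromosome 17 held 10.1% of the broad regions (interval 7.92% to 12.7%) and 4.57% of all autosomal H3K4me1 regions, and chromosome 19 held 6.44% (4.68% to 8.61%) and 2.88%. Chromosome 16 held 5.67% (4.03% to 7.74%) and 3.07%. Conversely, chromosome 4 held 1.69% (0.845% to 2.999%) of the broad regions and 4.25% of all, chromosome 6 held 1.53% (0.738% to 2.80%) and 5.08%, and chromosome 3 held 3.83% (2.50% to 5.61%) and 6.73%. The number of broad regions per 10 Mb was higher where H3K4me1 was denser, and the part of that density in these shares was not tested.

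**Figure D5:**
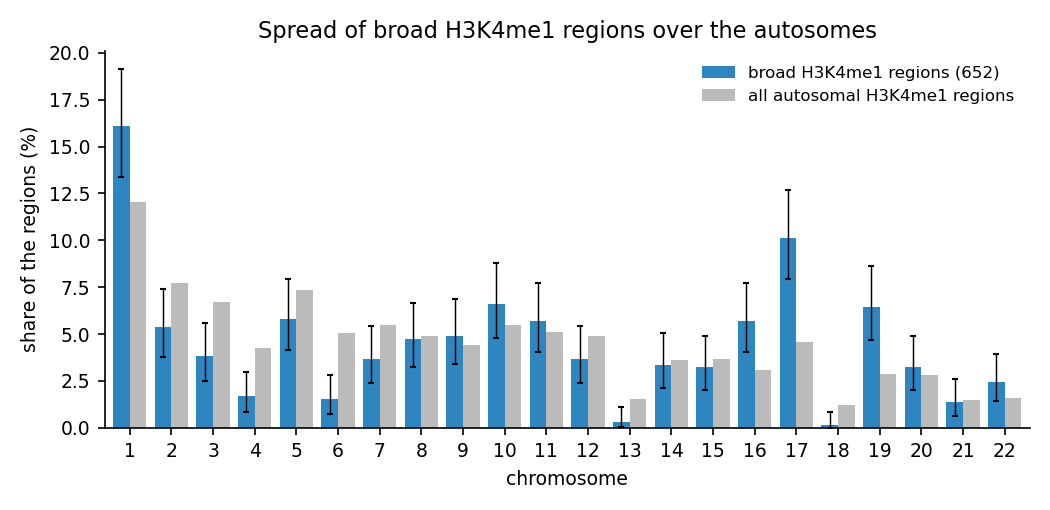
For each autosome (x axis) the blue bar gives its share of the 652 broad H3K4me1 regions and the grey bar its share of all autosomal H3K4me1 regions (y axis, %), with black lines for the exact 95% interval of the blue bar, which covers counting error only. Blue exceeds grey most on chromosome 17 (10.1% against 4.57%), and falls short of it most on chromosome 6 (1.53% against 5.08%).

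Acetylation of broad regions was also compared between chromosomes. Among the 20 chromosomes with at least 9 broad regions, the median H3K27ac share ranged from 63.6% on chromosome 7 to 96.2% on chromosome 4, and the chromosome 4 value rests on 11 regions. On chromosomes 1, 17 and 19, which hold the most per chromosome or per Mb, it was 68.4%, 71.4% and 76.8%. Broad regions were found near the ends of chromosomes more often than H3K4me1 regions in general. The midpoint was within 5 Mb of an end of the chromosome span in 158 of the 652 (24.2%, interval 21.0% to 27.7%), against 11.3% of all autosomal H3K4me1 regions, and these stretches make up 7.64% of the span. The share was 20.03% (16.99% to 23.3%) for regions of 8 to under 10 kb, an interval that overlaps that of the broad regions. Those 158 were less acetylated, with a median share of 63.1% (quartiles 45.9% and 79.6%), against 72.7% (57.7% and 86.1%) in the 494 farther in. These spreads overlap widely, and the lowest of the near-end regions was also the lowest of all.

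Regions just inside and just outside the limits are given as a description. The first 3 in genome order at exactly 10000 bp were chr5:180222201-180232200, chr8:101495801-101505800 and chr9:139616651-139626650, with 97.5%, 34.0% and 47.5% of their length in H3K27ac. The first 3 at 9950 bp were chr1:9218751-9228700, chr1:27025601-27035550 and chr1:65611701-65621650, with 84.9%, 94.97% and 93.0%. The 4 regions of 10 kb or more that the score limit left out were chr2:133018201-133037700, chr10:42373301-42402750, chr10:46987351-47009350 and chr18:18510501-18520900. H3K27ac covered 88.7%, 98.6%, 59.8% and 98.6% of them, and it crossed no edge of any of the 4.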

How the data were processed

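ChIP-seq region lists of H3K27ac and H3K4me1 in LNCaP cells were used, 1 library each. Per the submitters' processing notes, Bowtie 0.12.8 and the build hg19 were used. The region caller, its threshold and any use of the input are not given in any of the sources used here, and they set the number and width of regions. Per the labels' protocols, chromatin was sonicated mostly to fragments between 200 and 600 bp and sequenced as 50 bp single-end reads. Each deposited list gives a chromosome, start, end and 1 unnamed score per region. The score deposited by the authors served only to filter or describe regions within a list. The lists hold no counts, so depth is unknown.

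Starts were read as 0-based and are printed counted from 1. H3K27ac regions were clipped to each H3K4me1 region. H3K4me1-only edges run from the region's end to the first or last H3K27ac region. Shares carry exact Clopper-Pearson 95% intervals. Chromosome span is the last position in either list. The geometry was tested on 1001 simulated regions, with 0 mismatches against a base-by-base count. No p-value was computed. The regions named are the extremes of width, number, share, edge, inner stretch, reach and pair distance by a fixed rule. The runs, blocks that met several broad regions, width classes, distance to chromosome ends, spacing and profiles were chosen after seeing the data. The members and lists were chosen with earlier results of these data known. No gene names were assigned, as the gene table used here is of another build. The tools were scipy 1.17.1, numpy 2.4.6, matplotlib 3.10.9 and pandas 2.3.3 under Python 3.11.15.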

Additional observations from a re-analysis of the deposited data

How the results depend on the processing

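Of 44 alternative values, 34 stayed within the interval of the main share, or within 1.5 times the main count, length or mean, and 10 moved. The number of broad regions, 652, was 1291 with a width limit of 8 kb, 377 with 12 kb and 1502 when H3K4me1 regions at most 500 bp apart were merged first. The share that met H3K27ac, 100%, was 99.1% at 8 kb, 99.3% after this merging, 98.9% with H3K27ac scores at or below the list median, and 80.5% when at least 50% had to be covered. Edges on both sides, 59.0%, were found in 69.4% after this merging and in 41.4% when each had to reach 500 bp. The midpoint lay in H3K27ac in 69.8% after this merging, against 75.6%. The pooled H3K27ac share ranged from 62.1% to 71.8% and the mean number of H3K27ac regions from 1.63 to 2.62. No paired analysis was possible because the labels give no replicates. As depth is unknown, stretches outside a list may still carry the mark.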
